A study of Mus musculus with 16 samples.

Results

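Mouse Taar7 and Taar8 form the largest subfamilies of trace amine-associated receptors (TAARs), and 8 of their genes were measured here: Taar7a, Taar7b, Taar7d, Taar7e, Taar7f, Taar8a, Taar8b and Taar8c. They were taken by gene symbol from the array's annotation, each had 1 probe set, and they are 8 of the 15 TAARs and of 19505 genes named on the array. Cells were sorted from olfactory mucosa of mice with the S100a5-tauGFP reporter, whose GFP follows the recent activity of olfactory sensory neurons, and all groups carry it. The 4 groups, of 4 arrays each, were GFP+ cells after 2-octanone, GFP+ cells after vehicle, GFP− cells after 2-octanone and GFP− cells after vehicle. In all, 24 mice of both sexes, 7 to 12 weeks old, were kept singly in clean air chambers for 40 h at an air flow of 3.1 L/min. From 26 h on they received pulses of 10 s every 20 min, of the ketone odorant 2-octanone in 4 pools of 3 mice and of filtered air (vehicle) in the other 4 pools. Each pool was sorted by flow cytometry into both fractions, so that the GFP+ and the GFP− array of a pool share their mice.

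TAARs are G protein-coupled receptors that detect volatile amines, and in the nose each is expressed by its own small set of olfactory sensory neurons, generally 1 receptor gene per neuron. Those neurons use the same transduction cascade as neurons with odorant receptors: the G protein subunit encoded by Gnal activates the adenylyl cyclase encoded by Adcy3, and cyclic AMP opens a cation channel. The signal of a receptor gene in a pool of sorted cells therefore depends both on how many neurons express it and on the RNA per neuron. These cannot be told apart here. Taar7f is the member with the best described ligands: in transfected cells the mouse receptor responds to tertiary amines such as N-methylpiperidine.

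The genes lie next to each other on mouse chromosome 10. In RefSeq's GRCm38.p6 annotation the order is Taar7a, Taar7b, Taar7d, Taar7e, Taar7f, Taar8a, Taar8b and Taar8c, with 3 pseudogenes among them (Taar7c-ps, Gm15136 and Gm6884). Taar6 and Taar9 flank the set. The annotated genes are 1077 bases long for each of the 5 Taar7 genes, 1035 for Taar8a and Taar8b and 1109 for Taar8c. The likeness of the Taar7 genes was read only at their annotated starts. The table of sequence windows used for this holds 6 of the 8 members and not Taar8a and Taar8c. Whole genes were not compared, so these stretches do not rank the paralogs over their full length. The first 50 bases, which open with ATG in each, are shown here because their likeness bears on the comparison of paralogs, with capitals for each base that differs from Taar7d at the same position:
Taar7a: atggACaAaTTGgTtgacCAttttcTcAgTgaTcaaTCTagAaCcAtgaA
Taar7b: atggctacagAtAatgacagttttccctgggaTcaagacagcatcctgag
Taar7d: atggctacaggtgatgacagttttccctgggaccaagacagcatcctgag
Taar7e: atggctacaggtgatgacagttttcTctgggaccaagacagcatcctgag
Taar7f: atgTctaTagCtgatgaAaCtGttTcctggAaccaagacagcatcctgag
These stretches are chr10:23993432-23993481 (Taar7a, minus strand), chr10:23999939-23999988 (Taar7b), chr10:24027222-24027271 (Taar7d), chr10:24037614-24037663 (Taar7e) and chr10:24049510-24049559 (Taar7f), the last 4 on the plus strand. Taar7d and Taar7e differed at 1 of the 50 positions (C26T, counted from the A of the start codon, Taar7d's base first). Taar7b differed from Taar7d at 3 positions (G11A, G13A and C33T), Taar7f at 8 and Taar7a at 20.

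In the 250 bases before the start, Taar7b stood further off and Taar7f closer. Globally aligned, Taar7d shared 83.9% of alignment columns with Taar7e and 78.5% with Taar7f, against 56.4% with Taar7b and 52.0% with Taar7a. The windows of the 3 genes most alike before the start, 250 bases before to 50 bases from the start, are printed in full. Capitals mark bases that differ from, or have no partner in, the aligned window of Taar7e (for Taar7d) or of Taar7d (for Taar7e and Taar7f):
Taar7d: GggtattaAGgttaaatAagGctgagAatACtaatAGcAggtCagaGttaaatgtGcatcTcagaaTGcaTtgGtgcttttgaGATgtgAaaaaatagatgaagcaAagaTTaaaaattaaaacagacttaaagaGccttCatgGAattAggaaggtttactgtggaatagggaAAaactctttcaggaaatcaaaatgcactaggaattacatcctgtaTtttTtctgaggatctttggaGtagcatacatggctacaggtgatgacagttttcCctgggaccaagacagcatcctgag
Taar7e: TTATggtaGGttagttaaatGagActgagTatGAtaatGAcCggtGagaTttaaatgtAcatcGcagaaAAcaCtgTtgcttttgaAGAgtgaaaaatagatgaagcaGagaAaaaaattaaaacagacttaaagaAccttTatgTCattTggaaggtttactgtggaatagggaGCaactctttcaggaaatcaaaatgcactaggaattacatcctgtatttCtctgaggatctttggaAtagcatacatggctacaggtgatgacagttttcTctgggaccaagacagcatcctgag
Taar7f: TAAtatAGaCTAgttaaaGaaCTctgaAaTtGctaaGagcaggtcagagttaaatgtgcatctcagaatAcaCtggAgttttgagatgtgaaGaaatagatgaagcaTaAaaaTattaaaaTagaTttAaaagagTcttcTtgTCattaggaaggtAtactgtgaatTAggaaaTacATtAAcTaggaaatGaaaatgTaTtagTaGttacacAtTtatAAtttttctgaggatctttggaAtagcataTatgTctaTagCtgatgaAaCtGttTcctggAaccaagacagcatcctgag
The windows are chr10:24026972-24027271, chr10:24037364-24037663 and chr10:24049260-24049559 of GRCm38.p6, on the plus strand. The homeodomain core TAATTA, which is its own reverse complement, was found in the window of Taar8b and not in those of the 5 Taar7 genes, and 5.29% of the table's 32851 windows hold it. TATAAA, on either strand, was found in the windows of Taar7a, Taar7b, Taar7f and Taar8b and not in those of Taar7d and Taar7e (13.6% of all windows). The palindromic core of the site of Ebf factors was in none of the 6 (0.904% of all windows). The windows of the 6 members are placed on a start that opens with ATG, and whether they hold the promoters was not tested. The probe sequences of the array were not used here, so whether each probe set reads its own paralog alone was not tested.

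Each value is a signal as the authors normalised it, read as log2, so that a difference of 1 is a doubling. Control probe sets for background averaged 5.40 to 5.61 per array. Signals of different probe sets are not comparable as levels, but their place against the 5222 negative control probe sets shows how far each stood from non-specific signal. The median of the negative controls was 6.42 to 7.12 on GFP+ arrays and 6.15 to 6.88 on GFP− arrays. The median of named genes was 7.64 to 7.73 and 7.92 to 8.01. The part of these shifts in the differences between fractions was not tested. On its own array, Taar7a exceeded 48.1% to 74.6% of negative controls in GFP+ cells and 78.6% to 95.9% in GFP− cells. Taar7b, Taar7d, Taar7e and Taar7f exceeded at least 81.1% on every array. The Taar8 genes lay among the negative controls in both fractions, with medians over arrays of 78.0% in GFP+ and 66.0% in GFP− cells for Taar8a, 70.5% and 79.4% for Taar8b, and 74.1% and 65.3% for Taar8c, and each fell under the controls' median on some arrays. For Taar7a and the Taar8 genes differences are therefore given as log2 signals and not as folds of RNA.

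The sorted fractions differed in cell types besides reporter state. Array means of 8 mature neuron markers, Omp among them, were 17.22 to 17.41 in GFP+ cells after 2-octanone and 17.29 to 17.37 after vehicle, and 16.99 to 17.22 and 16.63 to 17.22 in GFP− cells. By limma 3 of the 8 (37.5%) were higher in GFP+ cells. Of all probe sets 30.7% were called, 16.7% higher and 14% lower, and the marker counts below read against these shares too. All 8 neutrophil markers were lower, with array means of 7.26 to 13.17 after 2-octanone and 6.86 to 8.67 after vehicle in GFP+ cells, against 15.08 to 16.46 and 15.22 to 16.12 in GFP− cells. Immature neuron markers were lower for 5 of 6, with array means of 10.15 to 10.60 and 10.14 to 10.54, against 11.88 to 13.10 and 12.62 to 13.16 in GFP− cells. Also lower were 4 of 4 measured precursor markers (array means 5.54 to 6.53 in GFP+ and 8.24 to 9.69 in GFP− cells), 5 of 6 microvillar markers (5.72 to 6.73 and 7.66 to 8.66), 3 of 5 measured macrophage markers (6.93 to 8.41 and 8.54 to 10.31) and 2 of 2 measured erythroid markers (8.69 to 9.12 and 10.34 to 12.47). Sustentacular markers had 1 of 6 higher and 2 lower (9.47 to 10.98 and 10.16 to 11.48). The part of these cells in the receptor differences was not tested. S100a5, the reporter's own gene, set the replicate 4 pools of both exposures apart: it was 13.11 to 13.92 on their 4 arrays and 15.45 to 16.98 on the other 12. Its difference of 0.83 between GFP+ and GFP− cells was not called (limma adjusted p = 0.304), while blocking by pool called it (0.000487). Where leaving out these pools changed a call, both values are given.

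Setting GFP+ against GFP− cells shows on which side of the sort each receptor was richer. The 8 receptors divided evenly between both directions. Taar7b, Taar7e, Taar8a and Taar8c were higher in GFP+ cells, with log2 differences of 0.80 to 1.04. Taar7a, Taar7d, Taar7f and Taar8b were lower, with log2 differences of −2.55 to −0.64. All 8 were called by limma at an adjusted p under 0.05 over all 19572 probe sets, where 30.7% of probe sets were called (16.7% higher and 14% lower). Odorant receptors were called at a higher share than genes in general, 70.7% of 1081 (484 higher, 280 lower), so that the members' count reads against that share as well. The median difference was 0.08 over the members and 0.13 over all genes. Centring each array on its median moved the median of all genes to 0.41 and the share of calls that were higher to 86.4%, against 54.4% without it. No member changed its direction.

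**Figure D1:**
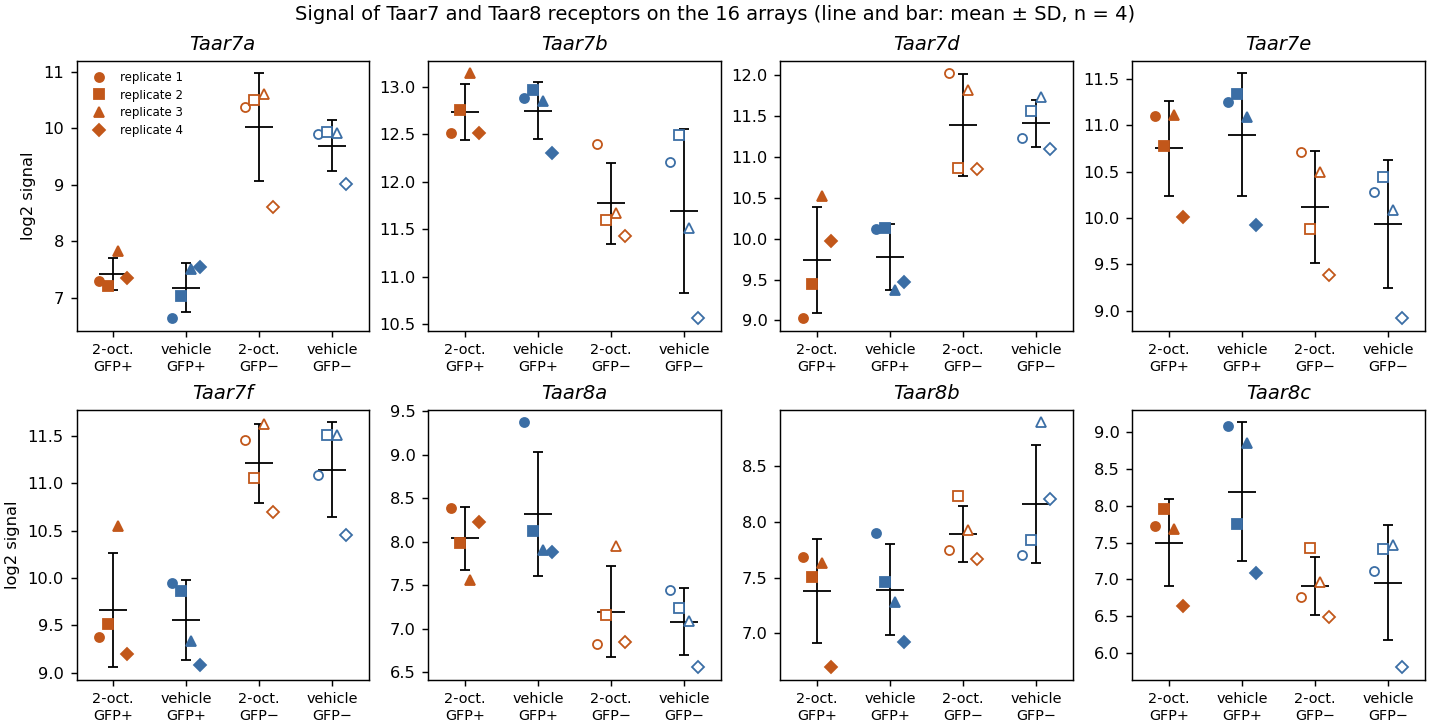
Log2 signal (vertical axes, each gene on its own scale) of the 8 receptors on each of the 16 arrays, with 2-octanone in orange and vehicle in blue, GFP+ filled and GFP− open, marker shape for the replicate number, and mean ± SD of 4 arrays in black. Taar7a reads 6.64 to 7.84 on the GFP+ arrays and 8.61 to 10.61 on the GFP− arrays.

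Taar7a had the largest difference of the 8. The GFP+ fraction read 7.30, 7.22, 7.84 and 7.36 with 2-octanone and 6.64, 7.03, 7.52 and 7.55 with vehicle. The GFP− fraction read 10.38, 10.50, 10.61 and 8.61 with 2-octanone and 9.90, 9.93, 9.92 and 9.01 with vehicle. No GFP+ array reached the lowest GFP− array, and the replicate 4 pools were the lowest GFP− arrays of both exposures. The difference was −2.55 (SE 0.26, log2, n = 8 pools, limma adjusted p = 8.56e-07), and its GFP+ side lay among the negative controls. Within pools it was −1.25 and −1.46 in the replicate 4 pools of 2-octanone and vehicle, and −3.27 to −2.40 in the other 6. Without both replicate 4 pools the difference was −2.95.

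Taar7d and Taar7f, neighbours of Taar7e on the chromosome, were also lower in GFP+ cells. Taar7d read 9.03, 9.44, 10.53 and 9.97 with 2-octanone and 10.12, 10.14, 9.38 and 9.48 with vehicle in GFP+ cells, against 12.03, 10.87, 11.82 and 10.86 and against 11.24, 11.57, 11.74 and 11.11 in the GFP− cells of the same pools. Every GFP+ array lay below every GFP− array, with a difference of −1.64 (SE 0.23, limma adjusted p = 3.27e-05). Taar7f read 9.38, 9.52, 10.54 and 9.20 with 2-octanone and 9.95, 9.86, 9.33 and 9.08 with vehicle in GFP+ cells. The GFP− cells of those pools gave 11.45, 11.06, 11.63 and 10.70 with 2-octanone and 11.09, 11.51, 11.51 and 10.45 with vehicle. Its fractions overlapped only through the highest GFP+ array (10.54, octanone replicate 3) and the lowest GFP− array (10.45, vehicle replicate 4), and both genes were lower in GFP+ cells in all 8 pools. The difference of Taar7f was −1.57 (SE 0.22, adjusted p = 3.30e-05). Of all probe sets, 11.4% had no overlap between the 8 GFP+ and the 8 GFP− arrays, as Taar7a and Taar7d did, and 25.7% had the same sign in all 8 pools, as 6 of the 8 members did.

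Taar7b and Taar7e lay on the other side. After 2-octanone Taar7b read 12.51, 12.76, 13.14 and 12.51 in the GFP+ fraction, and after vehicle 12.88, 12.97, 12.85 and 12.30. The GFP− fraction gave 12.40, 11.60, 11.67 and 11.42 with 2-octanone and 12.21, 12.50, 11.51 and 10.56 with vehicle. The fractions overlapped across pools, while within each of the 8 pools the GFP+ cells were higher, by 0.12 to 1.75. The limma difference was 1.01 (SE 0.24, adjusted p = 0.00369), a 2.01-fold higher signal. The GFP+ fraction had Taar7e at 11.10, 10.78, 11.12 and 10.01 with 2-octanone and at 11.25, 11.34, 11.09 and 9.92 with vehicle. Its GFP− values were 10.72, 9.88, 10.50 and 9.38 after 2-octanone and 10.28, 10.45, 10.09 and 8.92 after vehicle. Both fractions of the replicate 4 pools read low, and the difference within pools was the most even of the 8 genes, 0.39 to 1.00 (mean 0.80, SD 0.23 over 8 pools). Limma without the pairing called it only just (0.80, SE 0.28, adjusted p = 0.0370). Leaving out octanone replicate 2 or 3 or vehicle replicate 1, 2 or 3 ended that call (adjusted p up to 0.0988), and blocking by pool gave an adjusted p of 1.96e-05.

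**Figure D2:**
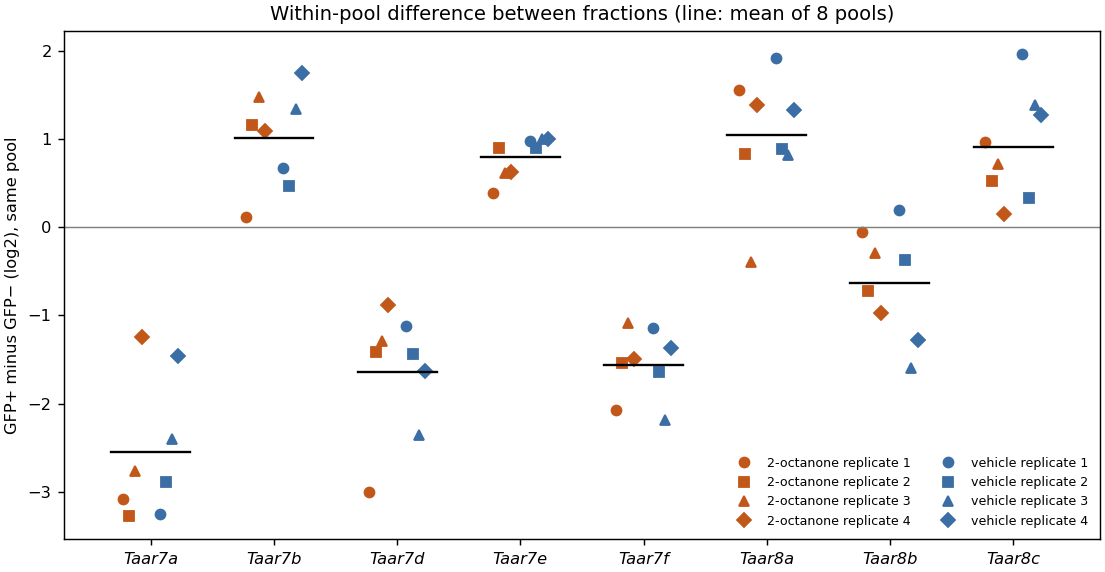
Difference GFP+ minus GFP− (vertical axis, log2) within each of the 8 pools, with 2-octanone in orange, vehicle in blue, marker shape for the replicate number and a black line at the mean of 8 pools. Taar7b, Taar7e and Taar8c lie above 0 and Taar7a, Taar7d and Taar7f below 0 in all 8 pools.

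Among the Taar8 genes, which stood nearest to the negative controls, the spread between pools was larger relative to the difference. Taar8a read 8.38, 7.99, 7.56 and 8.23 with 2-octanone and 9.37, 8.13, 7.90 and 7.88 with vehicle in GFP+ cells, against 6.83, 7.16, 7.95 and 6.85 and against 7.45, 7.24, 7.09 and 6.56 in GFP− cells. It was higher in the GFP+ cells of 7 pools and lower in octanone replicate 3, with a difference of 1.04 (SE 0.23, limma adjusted p = 0.00242). Taar8c read 7.73, 7.95, 7.68 and 6.64 with 2-octanone and 9.07, 7.75, 8.85 and 7.08 with vehicle in GFP+ cells. The GFP− cells gave 6.77, 7.42, 6.97 and 6.49 with 2-octanone and 7.11, 7.42, 7.47 and 5.81 with vehicle. GFP+ cells were higher in all 8 pools, by 0.15 to 1.96, with a difference of 0.91 (SE 0.31, adjusted p = 0.0344). That call was lost without octanone replicate 1, 2 or 3 or vehicle replicate 1 or 3 (adjusted p up to 0.0904), and blocking by pool gave 0.00101.

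Taar8b was the Taar8 gene with lower signal in GFP+ cells. It read 7.69, 7.51, 7.63 and 6.70 with 2-octanone and 7.90, 7.46, 7.28 and 6.92 with vehicle in GFP+ cells, against 7.74, 8.23, 7.93 and 7.67 and against 7.70, 7.83, 8.89 and 8.20 in GFP− cells. The sign was negative in 7 of 8 pools, vehicle replicate 1 being the exception. Its difference of −0.64 (SE 0.19, limma adjusted p = 0.0196) was the smallest of the 8. It was not called after quantile normalisation (−0.55, adjusted p = 0.0638), after median centring (−0.36, 0.0991), without both replicate 4 pools (−0.48, 0.0860) or without octanone replicate 2, vehicle replicate 3 or vehicle replicate 4 (0.0562 to 0.0623).

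Along the chromosome the directions of the 8 alternated rather than forming a block. The flanking genes did not continue this: Taar6 had the sign of Taar7a and Taar9 that of Taar8c. From Taar7a to Taar8c the differences were −2.55, 1.01, −1.64, 0.80, −1.57, 1.04, −0.64 and 0.91. Of the 7 other TAARs, 3 were higher (Taar4 at 2.32 and Taar9 at 2.41 the largest), 2 were lower (Taar2 at −3.34 and Taar6 at −1.65) and 2, Taar1 and Taar3, were not called. The list of odorant signalling genes, which holds Omp, Rtp1 and Rtp2 besides the cascade, had 8 of 15 higher and none lower. The phosphodiesterase gene Pde1c was at 0.72 and the exchanger gene Slc24a4 at 0.56. Over all probe sets 16.7% were higher and 14% lower. Of 14 genes for receptor choice 1 was lower, the lamin B receptor gene Lbr at −1.85, a nuclear envelope protein, and none was higher. The part of the other cell types in the difference of Lbr was not tested.

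**Figure D3:**
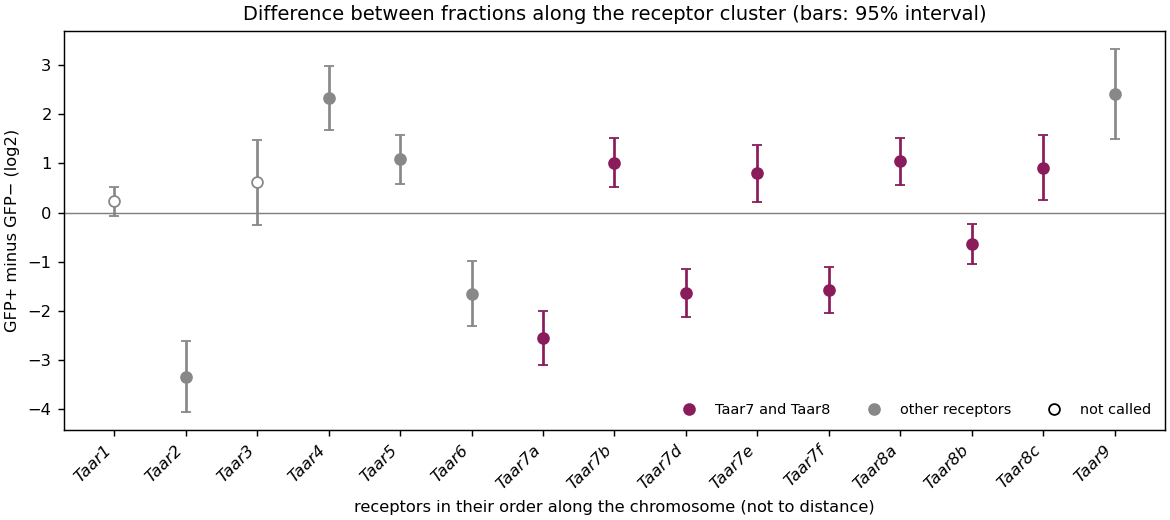
Difference GFP+ minus GFP− (vertical axis, log2, over both exposures) of the 15 TAARs in their chromosomal order, not drawn to distance, with 95% intervals. The 8 Taar7 and Taar8 genes (purple) alternate between −2.55 and 1.04, and open symbols were not called.

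Within exposures the directions were the same. Limma called 52.4% of odorant receptors after 2-octanone and 56.1% after vehicle, and 71.4% of the 7 other TAARs after each. Fewer members were called than over both exposures. After 2-octanone limma called 3, all lower (Taar7a at −2.59, Taar7d at −1.65 and Taar7f at −1.55), where 15.1% of all probe sets were called (5.29% higher and 9.8% lower). Taar7b at 0.96 (adjusted p = 0.0642), Taar8a at 0.84 (0.0973), Taar7e at 0.63 (0.309), Taar8c at 0.59 (0.406) and Taar8b at −0.51 (0.237) were not. With the pool as a block 5 were called, Taar7b (adjusted p = 0.0164) and Taar7e (0.00292) being added, where 19.7% of all probe sets were called. Without both replicate 4 pools these same genes were added (0.0333 and 0.0489), Taar7b also without octanone replicate 1 (0.0424) or vehicle replicate 4 (0.00923), and Taar8a without octanone replicate 3 (0.0229) or vehicle replicate 1 (0.0361). After vehicle 5 of 8 were called, against 18.6% of all probe sets (7.54% higher and 11% lower): Taar7a at −2.50, Taar7d at −1.63, Taar7f at −1.59, Taar7b at 1.06 and Taar8a at 1.24. Of the others Taar7e differed by 0.97 (0.0995), Taar8c by 1.24 (0.0602) and Taar8b by −0.77 (0.0630). Blocking by pool called Taar7e (0.000113) and Taar8c (0.00195) too, where 21.9% of all probe sets were called. Without both replicate 4 pools Taar7e (0.00487) and Taar8c (0.0107) were called and Taar7b was not (0.0545). Fitting the compared arrays alone called Taar7b after 2-octanone (0.0167) and not after vehicle (0.0870). Median centring added Taar7b and Taar8a after 2-octanone (0.00868 and 0.0142) and Taar7e and Taar8c after vehicle (0.0125 and 0.00892). Calls then rose over all genes as well, to 48.7% of probe sets after 2-octanone and 57.7% after vehicle. After vehicle, leaving out octanone replicate 2 or vehicle replicate 1, 3 or 4 alone also lost Taar7b (up to 0.140), leaving out octanone replicate 4 or vehicle replicate 1 gained Taar8b (0.0404 and 0.0207), and leaving out vehicle replicate 4 gained Taar8c (0.0355).

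The paralogs were compared through their within-pool differences, which sets no probe set's level against another's. For each of the 13 pairs within a subfamily the GFP+ minus GFP− difference of one gene was subtracted from that of the other in each pool. An exact sign-flip permutation test over the 8 pools was two-sided, its smallest possible p was 0.00781, and p-values were adjusted over the 13 pairs. The sides of 0 are those of the sort differences themselves, so a pass by a pair on opposite sides adds no independent support. The opposite Taar7 pairs join genes that each kept 1 sign in all 8 pools, which fixes their p at the smallest possible value. All 8 pairs with members on opposite sides passed an adjusted p of 0.05, 7 of them at the smallest p (adjusted p = 0.0145). Taar7d and Taar7e, the closest pair at their starts, differed by −2.44 ± 0.66 (SD, n = 8 pools; Taar7d minus Taar7e), negative in 8 of 8 pools with a range of −3.39 to −1.51 (exact adjusted p = 0.0145). Taar7b minus Taar7d was 2.65 ± 0.72, Taar7b minus Taar7f 2.58 ± 0.55, Taar7e minus Taar7f 2.37 ± 0.43, Taar7a minus Taar7b −3.56 ± 0.67 and Taar7a minus Taar7e −3.35 ± 0.81, each with the same sign in all 8 pools. In Taar8, Taar8b minus Taar8c was −1.55 ± 0.82, negative in 8 of 8 pools. Taar8a minus Taar8b was 1.68 ± 0.86, positive in 7 of 8 (exact adjusted p = 0.0254), and was 1.41 without both replicate 4 pools (0.0813). Without any 1 pool it was 1.55 to 1.93, with an adjusted p of 0.0508 when octanone replicate 1 or 2 or vehicle replicate 1, 2 or 3 was left out. The smallest p the test allows is 0.0156 with 7 pools and 0.0312 with 6, so fewer pools weaken it whatever the size of the difference.

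Pairs on the same side were closer, which follows in part from grouping them by the sign of these same differences. Taar7d minus Taar7f was −0.07 ± 0.45 (SD, n = 8; exact adjusted p = 0.641), with 4 pools of each sign and a range of −0.93 to 0.62. Taar7b minus Taar7e was 0.21 ± 0.49 (range −0.43 to 0.86, exact adjusted p = 0.295), and Taar8a minus Taar8c was 0.13 ± 0.73 (range −1.10 to 1.23, 0.641). For these 3 pairs no difference was detected over 8 pools. Taar7a, lower than both of its paralogs on that side, differed more: Taar7a minus Taar7f was −0.98 ± 0.87 (exact adjusted p = 0.0451) and Taar7a minus Taar7d −0.91 ± 0.92 (0.0508). In each of these pairs 1 of 8 pools lay above 0, at 0.25 and 0.17. The first ran from −1.16 to −0.82 without single pools and lost its call without any of them except octanone replicate 4 (adjusted p up to 0.0903), and the second gained one without vehicle replicate 4 (0.0254) or both replicate 4 pools (0.0451).

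**Figure D4:**
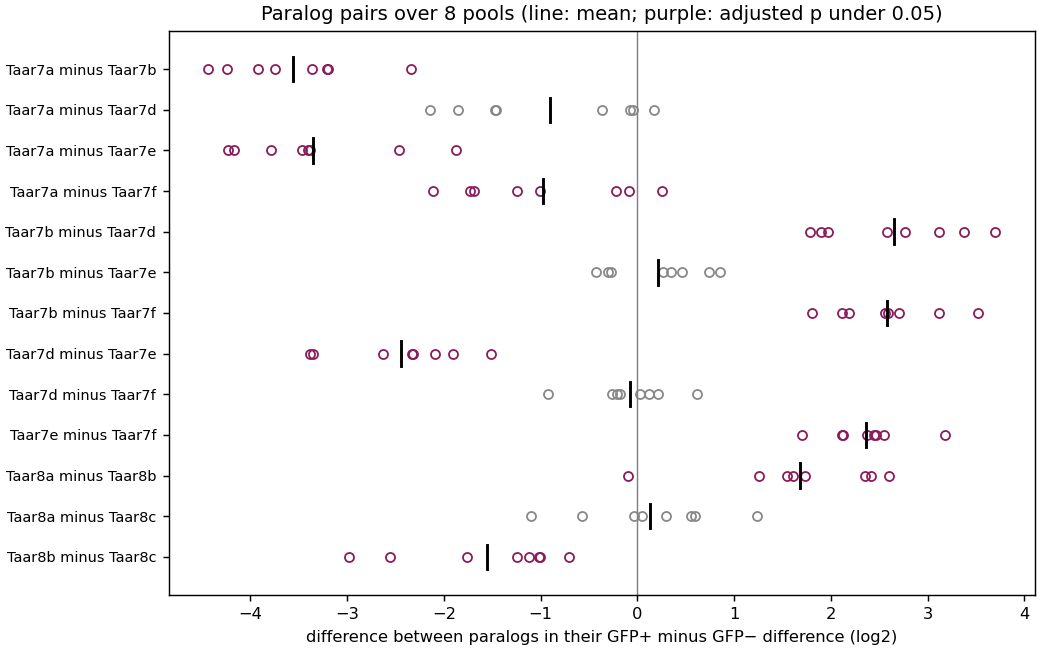
Difference between paralogs in their GFP+ minus GFP− difference (horizontal axis, log2), with 1 circle per pool, a black line at the mean of 8 pools, and purple where the exact adjusted p was under 0.05. Taar7d minus Taar7e lies between −3.39 and −1.51 in all 8 pools, and Taar7d minus Taar7f spreads around 0.

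The likeness of whole profiles was measured as the root mean square difference of log2 signals over the 16 arrays after each probe set's own mean was subtracted. The 16 arrays come from 8 pools and share the sort, so the values are a description. Of all genes on the array the nearest to Taar7d was Taar7f, and the nearest to Taar7f was Taar7d (0.29 log2, against a median over all genes of 1.02 for Taar7d and 0.98 for Taar7f). The next for both was the odorant receptor gene Olfr154, at 0.40 from Taar7d and 0.34 from Taar7f. Odorant receptors were also the nearest to Taar7a (Olfr671 at 0.40, Olfr134 at 0.46 and Olfr1 at 0.47), to Taar8c (Olfr584 at 0.42) and to Taar7b (Olfr76 at 0.22). Taar7e was nearest to Pacsin1, a gene of endocytosis in neurons, at 0.21. Taar8a was nearest to the cannabinoid receptor gene Cnr1 (0.36) and Taar8b to D830030K20Rik (0.28), against own root mean squares of 0.69 and 0.50.

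The comparison of 2-octanone with vehicle asks whether the odorant changed these receptors, and none of the 8 was called in either fraction. In GFP+ cells the 8 differences ran from −0.69 to 0.24, where limma called 0% of all probe sets. Taar8c had the largest: it averaged 7.50 ± 0.58 after 2-octanone and 8.19 ± 0.94 after vehicle (SD, n = 4), a difference of −0.69 with a 95% interval of −1.62 to 0.24 (limma adjusted p = 1.000). Taar7a averaged 7.43 ± 0.28 after 2-octanone and 7.19 ± 0.43 after vehicle, a difference of 0.24 (−0.53 to 1.02). The groups overlapped for each of these genes. Without single pools the difference of Taar8c ran from −1.06 (vehicle replicate 4 left out) to −0.39 (vehicle replicate 1) and that of Taar7a from 0.061 (vehicle replicate 1) to 0.36 (vehicle replicate 4), and without both replicate 4 pools they were −0.77 and 0.39. None of the 8 had an unadjusted p under 0.05, and 618 of all 19572 probe sets did. At so low a share, none among 8 is not a result about the members, here or in the like counts below.

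In GFP− cells the differences ran from −0.27 to 0.33, and limma called 0.00511% of all probe sets, which is 1 probe set, that of the odorant receptor gene Olfr123 (−1.58, limma adjusted p = 0.0289), named after its value was seen. That call was lost with the replicate number as a block, with only the compared arrays fitted, and without any 1 of the 4 octanone pools or of vehicle replicates 2 and 3. Taar7a averaged 10.02 ± 0.95 after 2-octanone and 9.69 ± 0.45 after vehicle (SD, n = 4), a difference of 0.33 with a 95% interval of −0.44 to 1.11. Taar8b averaged 7.89 ± 0.25 after 2-octanone and 8.16 ± 0.53 after vehicle, a difference of −0.27 (−0.84 to 0.31). Taar7a's value moved with the replicate 4 pools: it was 0.80 without octanone replicate 4, 0.11 without vehicle replicate 4 and 0.58 without both. Taar8b's was −0.022 without vehicle replicate 3, −0.42 without vehicle replicate 1 and −0.18 without both replicate 4 pools. The limma adjusted p was 1.000 for both, and again no member had an unadjusted p under 0.05 (477 of all probe sets). For the members not named singly, the intervals in both fractions stayed within −0.97 and 1.01. The difference between the fractions was larger in size than any bound of the gene's own exposure intervals for Taar7a, Taar7b, Taar7d, Taar7f and Taar8a, and not for Taar7e, Taar8b and Taar8c.

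**Figure D5:**
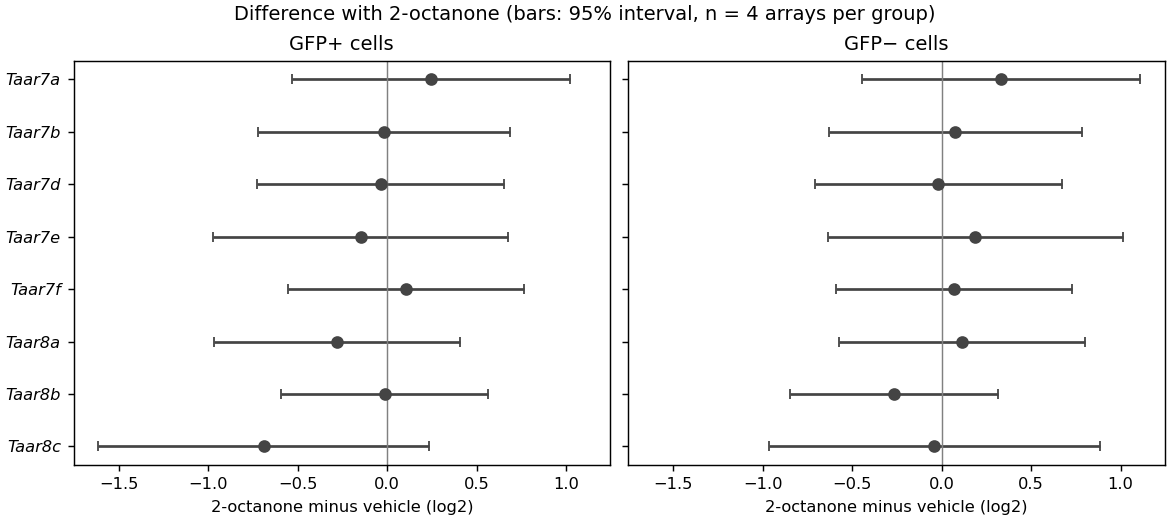
Difference 2-octanone minus vehicle (horizontal axes, log2) of the 8 receptors in GFP+ cells (left) and GFP− cells (right), as limma estimates with 95% intervals from 4 arrays per group. Every interval holds 0, and the widest excursion is that of Taar8c in GFP+ cells, to −1.62.

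Whether 2-octanone changed how the receptors divided between the fractions was tested as a change of the ratio. This change, which sets the sort after 2-octanone against the sort after vehicle, was called for none of the 8 and for 0% of all probe sets. The 8 changes ran from −0.65 to 0.25. That of Taar8c was the largest, with a within-pool difference of 0.96, 0.53, 0.71 and 0.15 with 2-octanone and 1.96, 0.33, 1.38 and 1.28 with vehicle. The pools overlapped between exposures, and the change of −0.65 had a 95% interval of −1.96 to 0.66 (limma adjusted p = 1.000). It ran from −0.95 to −0.41 without single pools. Over all genes 465 had an unadjusted p under 0.05, none of the members among them.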

How the data were processed

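Clariom S mouse arrays measured RNA of 2 sorted fractions from each of 8 pools, 16 arrays in all, from 50 to 100 ng of total RNA made into biotinylated cRNA per the labels' protocols. The authors deposited 1 value per probe set and array, read here as log2 signals from their range of 2.13 to 18.99. The log base and the normalisation are not given in the sources used here, and Affymetrix Expression Console is the tool in the submitters' processing notes. Of 28846 probe sets, 6640 were controls, 2634 named no gene and 19572 named 1 gene.

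All 16 arrays were fitted on the means of the 4 groups by limma 3.58.1 (R 4.3.3; 12 residual and 4.19 prior degrees of freedom). Tests were two-sided, and a call is a Benjamini-Hochberg adjusted p under 0.05 over all named probe sets. Paralog pairs were tested by exact sign flips over pools. Sequences were aligned with Biopython 1.88 (match 1, mismatch −1, gap −3, extension −0.5). The limma and sign-flip tests were tested on simulated data. The arrays simulated for limma had independent noise, so that fit was not checked with fractions that share a pool. Both fractions of a pool come from the same mice, which pairs them. Their residuals correlated by −0.00 to 0.46. Same-numbered arrays of both exposures correlated by 0.17 to 0.43 in GFP+ cells, all 4 over 0.1, which was taken to pair them there. The design was written without the block, and blocked values are given where they change a call. The replicate is the pool, and the precision is limited by 4 arrays per group.

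The lists were the other TAARs, odorant receptors, odorant signalling, receptor choice and markers of mature and immature neurons, precursors, sustentacular, microvillar, neutrophil, macrophage and erythroid cells. Named were all members, the 3 nearest genes per member (some given) and up to 2 genes per list and direction. The members and lists were chosen with earlier results of these data known. Alternatives were quantile normalisation, median centring, leaving out dim probe sets, adding unnamed ones, limma's trend and robust options, fits to the compared arrays alone, omission of each pool or of both replicate 4 pools, and the block.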

Additional observations from a re-analysis of the deposited data

Results flagged for a closer look

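In all, 3 values stood apart from the other 3 of their group by Dixon's test, which chance flags in about 1 in 20 groups, and 48 groups of 4 values were examined. In GFP− cells Taar7a read 8.61 in octanone replicate 4 and 9.01 in vehicle replicate 4, each below the other 3 pools of its exposure (10.38 to 10.61 and 9.90 to 9.93). In GFP+ cells Taar8a read 9.37 in vehicle replicate 1, above 7.88 to 8.13 in the other 3 vehicle pools. Of the 8 receptors, replicate 4 was the lowest of its group for 5 and 6 in GFP+ cells after 2-octanone and vehicle, and for 7 and 7 in GFP− cells. The share over all probe sets was not counted, so these counts are not read as a trait of the receptors. The whole arrays differed too. The negative control median was highest on replicate 4 in each group (6.94 and 7.12 in GFP+, 6.88 and 6.58 in GFP− cells). The median of named genes was lowest there in both GFP− groups (7.92 and 7.95).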

How the results depend on the processing

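Over both exposures no member's sort difference changed sign under 17 alternatives (16 for Taar8 genes). Taar7a, Taar7b, Taar7d, Taar7f and Taar8a were called under all of them, Taar7e under 12, Taar8c under 11 and Taar8b under 10. Without dim probe sets 5 were called, because the 3 Taar8 genes were then not tested. Leaving out single pools gave 5 to 8 over both exposures (5 without octanone replicate 2 or vehicle replicate 3), 3 to 4 after 2-octanone, 4 to 6 after vehicle, and 7 to 9 of the paralog pairs. After 2-octanone 5 were called after median centring, 5 without both replicate 4 pools and 5 with the pool as a replicate block. Of all probe sets 48.7%, 16.2% and 19.7% were called under these settings. In GFP− cells 3 of 4 same-numbered pairs of the exposures correlated over 0.1 in their residuals (−0.06 to 0.52), and 6 of 8 arrays correlated best with their own number, a hint from the data. With the number as a block 0 members were called for 2-octanone in either fraction. Taar7d minus Taar7f ran from −0.17 to 0.048 and Taar8a minus Taar8c from −0.030 to 0.30 when single pools were left out, and Taar8a minus Taar8c was −0.043 without both replicate 4 pools. Of 19 exposure differences not named singly, 18 changed sign under an alternative, 3 of them with all pools kept, and none was called under any (smallest adjusted p = 0.931). Of all 24 the smallest was 0.927, for Taar8c in GFP+ cells with the number as a block. Over all genes, median centring called 15141 in the sort against 6000, 9535 against 2955 after 2-octanone and 11289 against 3633 after vehicle; 83% and 84.7% of the calls after 2-octanone and vehicle were then higher, against 35.1% and 40.6%. Without dim probe sets 3664, 1811 and 2221 of 9786 were called. Without octanone replicate 2, 1963 were called after 2-octanone. The 1 call for 2-octanone in GFP− cells became 0 to 2. The causes were not tested. Each gene had 1 probe set, so no other could be tried, and signals near negative controls limit the Taar8 genes.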
